A study of Mus musculus with 6 samples.

Results

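Granule cells are the small, densely packed excitatory neurons of the cerebellar cortex, and their transcripts have no place in an ideal purification of Purkinje cell ribosomes. The data here are 10 genes used as granule cell markers, taken by name from a deposited table of 23420 genes together with the splice junctions that lie in them: Cbln1, Cbln3, Gabra6, Neurod1, Etv1, Calb2, Grin2c, Fat2, Zic1 and Slc17a7. They were chosen by name and not by a measured value, though with earlier results of these data known. They serve as a gauge of RNA from other cells and of splicing outside Purkinje neurons. All 10 were found in the table under these symbols, and all 10 passed the filter on low counts.

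The study isolated ribosome-bound RNA from cerebella of C57BL/6 mice aged 4 weeks. BacTRAP was used: the regulatory sequence of the Purkinje cell gene Pcp2 drives a ribosomal protein fused to GFP, and anti-GFP antibodies capture it with its RNA. The tested animals (cKO, 3 libraries) carried Pcp2-BacTRAP, Pcp2-Cre and the Rbm17 f/- genotype, and the controls (3 libraries) carried Pcp2-BacTRAP and Rbm17 f/+ with no Cre. RBM17 acts in pre-mRNA splicing, in the choice of the 3′ splice site. Each library came from 1 cerebellum. Pcp2 drives both the ribosome tag and Cre, so neither is meant to act in granule cells, while the f/- animals have 1 Rbm17 allele missing in every cell. Cre and the null allele were present in cKO alone, and their parts in a difference cannot be told apart.

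Granule cells send parallel fibres onto Purkinje cell dendrites. They release glutamate loaded into vesicles by the transporter VGLUT1, the product of Slc17a7. They also secrete cerebellins, of which Cbln1 organises the synapses of parallel fibres on Purkinje cells. Inhibition from Golgi cells reaches them through GABA-A receptors that contain the α6 subunit, encoded by Gabra6. Their NMDA receptors switch to the subunit encoded by Grin2c as they mature. Not all of the 10 genes are exclusive to granule cells: Calb2, for example, also marks unipolar brush cells. The annotation places an antisense gene over Cbln1 (Gm2694), Neurod1 (Gm26755) and Zic1 (Zic4), a gene on the same strand over Neurod1 (Cerkl), and small RNA genes in Grin2c and Slc17a7. Pcp2, which is set beside the 10 genes below, is overlapped by the antisense gene Pet100. Reads in those overlaps are uncertain, since the strand setting of the counting is not given in the sources used here.

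The libraries held between 140110897 and 160571518 reads assigned to genes and between 73457422 and 83976095 reads over splice junctions. Rbm17 stood at 25.7, 25.6 and 26.3 CPM (counts-per-million, on library sizes scaled by the TMM method) in cKO, against 41.2, 42.5 and 41.3 CPM in control, in the direction of the labels. Markers of Purkinje cells were abundant: a list of 19 summed to between 19841 and 22890 CPM in cKO and to between 31382 and 43477 CPM in control. Genes were compared with edgeR's quasi-likelihood test, in which 1265 of 16067 tested genes (7.87%) passed an adjusted p under 0.05. Of these, 647 rose and 618 fell in cKO.

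All 10 genes were detected in every library. Together the 10 genes held 3417, 5686 and 4855 CPM in the cKO libraries, against 4036, 4954 and 5730 CPM in the control libraries. The mean was 4653 ± 1148 CPM in cKO and 4906 ± 848 CPM in control (SD, n = 3 each), so the groups overlapped and differed by less than the spread within either. As a share of all reads assigned to genes the 10 took between 0.375% and 0.577% of a library.

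Levels of different genes can be set side by side only per unit of length, and RPKM (CPM divided by the kilobases of annotated exon) was used for that. Cbln3, which encodes a cerebellin that is secreted together with Cbln1, led with 332 ± 103 RPKM in cKO and 353 ± 82.3 RPKM in control (SD, n = 3 each). Pcp2, the gene whose regulatory sequence drives the tag, had 218 ± 40.3 RPKM in cKO and 575 ± 23.5 RPKM in control. By gene counts Cbln3 therefore had a higher mean per length than Pcp2 in cKO and a lower one in control. On junction reads, which are not scaled by length, Cbln3 was below Pcp2 in every library, as given below. Cbln3 has 3 annotated introns and Pcp2 has 7. Grin2c stood last, with 8.55 ± 2.97 RPKM in cKO and 9.47 ± 2.94 RPKM in control.

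Between these ends the order by control means was Gabra6, Neurod1, Cbln1, Zic1, Calb2, Slc17a7, Etv1 and Fat2, from 157 RPKM in Gabra6 to 29.2 RPKM in Fat2. Most neighbours in that order were not separated beyond their spread. In control the ranges of Gabra6 and Neurod1, of Neurod1 and Cbln1, of Cbln1 and Zic1, and of Calb2 and Slc17a7 overlapped. In cKO the same pairs overlapped, as did Zic1 with Calb2 and Etv1 with Fat2. The place of Neurod1 is uncertain for another reason, its overlapping genes Cerkl and Gm26755. With 1 annotated intron it had 0.779 junction reads per 100 gene counts, against 13.7 in Cbln1 with 4, and why was not tested. The places of Zic1, Calb2, Slc17a7 and Etv1 rest on the length used. On the longest coding transcript in place of all annotated exon bases, the control means of Slc17a7, Zic1, Etv1 and Calb2, now in that order, were 119, 90.9, 87.5 and 86.4 RPKM, in place of 64.5, 89.6, 43.3 and 70.9 RPKM.

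**Figure D1:**
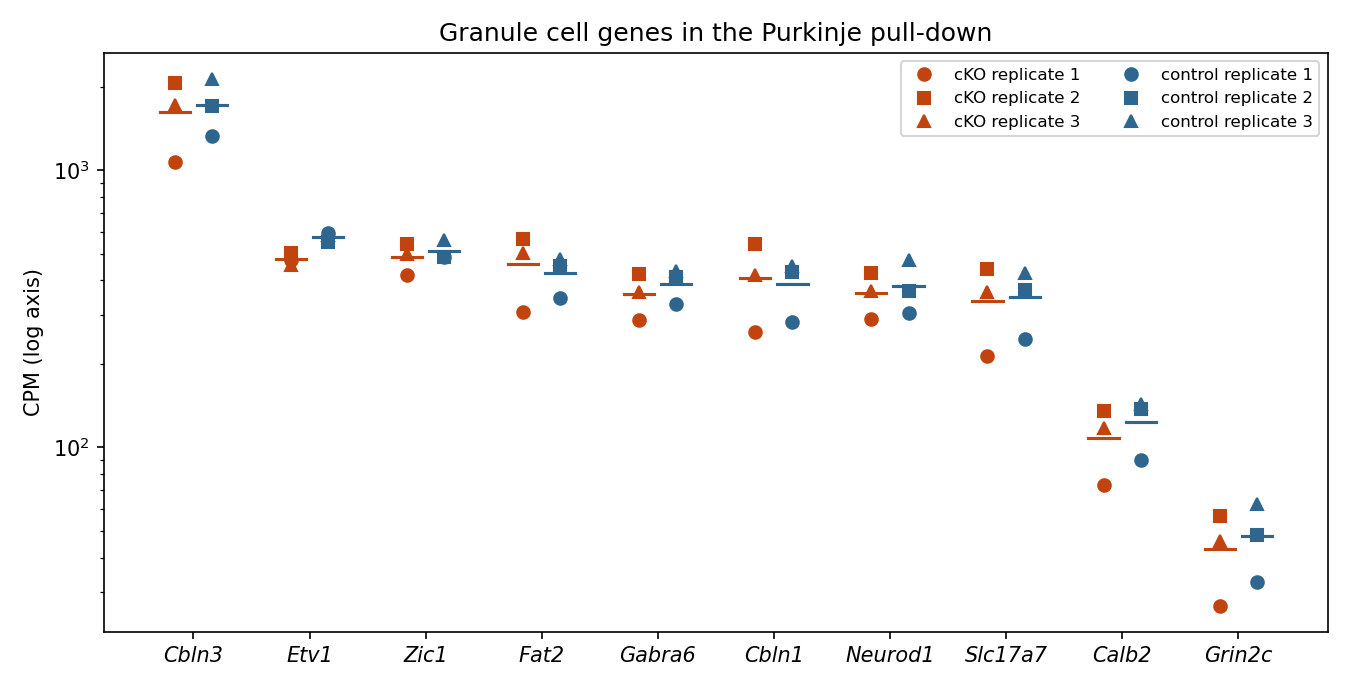
Level of the 10 granule cell genes in CPM on a log axis, ordered by control mean; the 3 cKO libraries (left, red) and 3 control libraries (right, blue) of each gene are points shaped by replicate number, and lines are group means. The groups overlap in every gene except Etv1, where the cKO libraries (456 to 502 CPM) lie below the control libraries (551 to 594 CPM).

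None of the 10 genes passed the test between the genotypes. In edgeR 0 of 10 had an adjusted p under 0.05, beside 7.87% of all genes tested (4.03% higher and 3.85% lower in cKO). At an unadjusted p under 0.05 the count was 1, Etv1, beside 22.1% of all genes tested. DESeq2 called the same single gene, and limma-voom called 0. The log2 fold changes, cKO over control, ran between -0.27 in Etv1 and 0.11 in Fat2 with a median of -0.09, and the median over all genes tested was 0.01. Of the 10, 8 values were negative and 2 were positive, but the sign of 9 of them, all but Etv1, turned when 1 library was left out. The median was 0.08 without cKO replicate 1 and 0.07 without control replicate 3. In such a mixture of cells, fewer cells of a type and less RNA per cell cannot be told apart.

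The secreted cerebellins were close between the groups. Cbln1, the organiser of parallel fibre synapses, had 261, 542 and 418 CPM in cKO, against 284, 429 and 450.5 CPM in control. The lowest value of both groups was in replicate 1, and the groups overlapped over most of their range. Its log2 fold change was 0.07, and it turned negative without control replicate 1 (-0.12) and without cKO replicate 2 (-0.19). Cbln3 had 1066, 2055 and 1724 CPM in cKO and 1325, 1704 and 2125 CPM in control, with a log2 fold change of -0.09. Cbln3 again had its lowest value of each group in replicate 1.

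The receptor and transporter genes of mature granule cells gave the same picture of overlapping groups. Gabra6 had 289, 423 and 364 CPM in cKO, against 328, 411 and 431 CPM in control, a log2 fold change of -0.12 (SE 0.15). Grin2c had 26.9, 56.3 and 46.0 CPM in cKO and 32.6, 48.2 and 62.2 CPM in control, a log2 fold change of -0.15 (SE 0.27). Slc17a7 had 214, 439 and 362 CPM in cKO and 247, 369 and 427 CPM in control, a log2 fold change of -0.04 (SE 0.25). In all 3 of these genes the SE was larger than the change. Calb2, which encodes the calcium-binding protein calretinin, had 73.4, 135 and 117 CPM in cKO and 89.8, 138 and 143 CPM in control. Its log2 fold change of -0.19 (SE 0.22) was likewise smaller than its error. Fat2, an atypical cadherin of the parallel fibres, had 308, 566 and 503 CPM in cKO and 346, 450 and 478 CPM in control, a log2 fold change of 0.11 (SE 0.20).

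Of the 3 genes of transcription factors, Neurod1 and Zic1 overlapped between the groups and Etv1 did not. Neurod1, a basic helix-loop-helix factor of granule cell differentiation, had 291, 426 and 367 CPM in cKO, against 305, 367 and 474 CPM in control. Zic1, a zinc finger factor of cerebellar progenitors and granule cells, had 417, 543 and 497 CPM in cKO and 485, 487 and 558 CPM in control. Their log2 fold changes were -0.08 (SE 0.17) and -0.07 (SE 0.11). Etv1, an ETS family factor, had 472, 502 and 456 CPM in cKO, against 594, 551 and 581 CPM in control. Every cKO library lay below every control library, a separation in this direction that 13.4% of all tested genes had, and 28.4% had it in either direction.

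The log2 fold change of Etv1 was -0.27 (SE 0.08), with an edgeR adjusted p of 0.082 and an unadjusted p of 0.0086. It stayed negative in all 16 alternative settings, between -0.32 and -0.22, with adjusted p between 0.024 and 0.29. Only DESeq2 brought the adjusted p under the threshold. The count of called genes among the 10 depended on the tool for this gene alone.

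**Figure D2:**
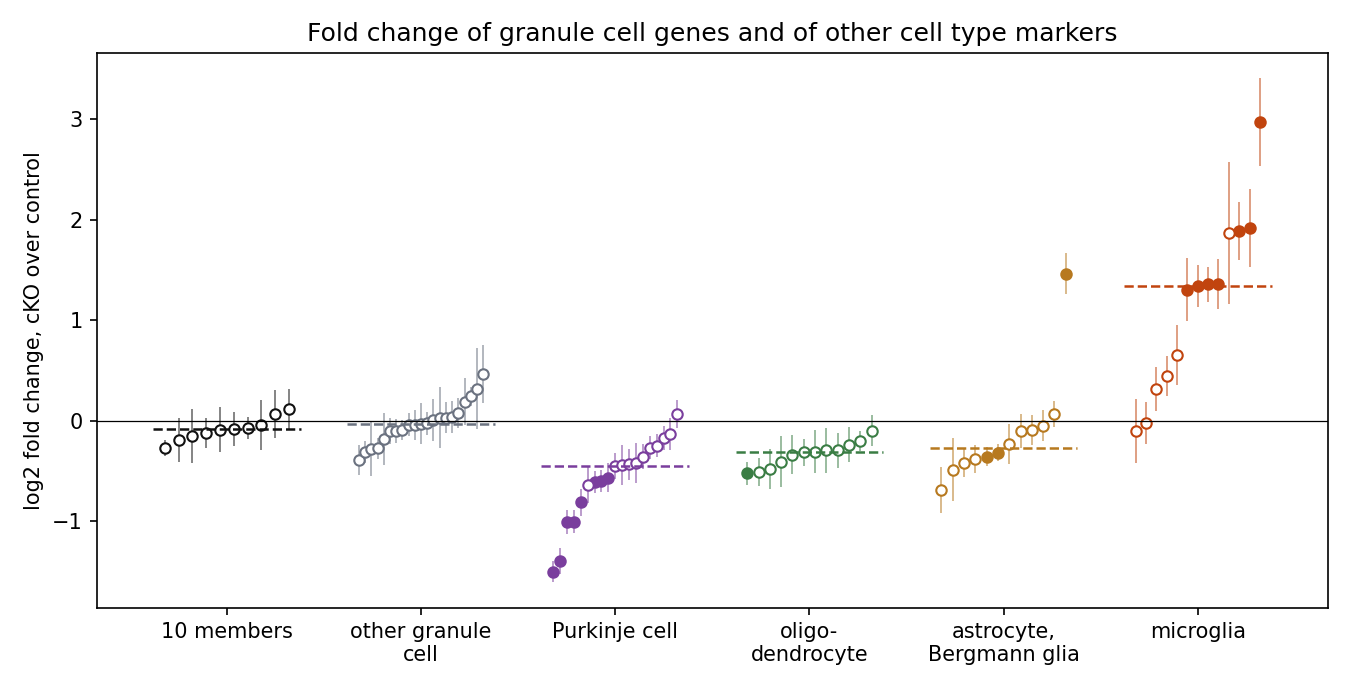
Log2 fold change, cKO over control, of each gene in 6 lists, sorted within a list; bars are 1 SE, filled points had an adjusted p under 0.05 in edgeR, and dashed lines are list medians. The 10 members and the 21 other granule cell genes have no filled point and medians of -0.09 and -0.03, while the Purkinje cell list has a median of -0.45 and the microglia list one of 1.34.

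A second list of 21 genes of granule cells was set beside the 10, and edgeR called 0 of its 21. Without adjustment, 1 was higher and 3 were lower at p under 0.05, and the median log2 fold change was -0.03. The 2 genes with the highest level were Chn2, which encodes a Rac GTPase activating protein, and Nfix, a nuclear factor I transcription factor. Chn2 had 340, 512 and 482 CPM in cKO, against 531, 571 and 649 CPM in control, with no overlap and a log2 fold change of -0.39 (SE 0.15, edgeR adjusted p = 0.14). DESeq2 called Chn2 and Tiam1, with adjusted p of 0.046 and 0.044. Nfix had 324, 502 and 428 CPM in cKO and 345, 406 and 468 CPM in control, and the groups overlapped. Of the genes of immature granule cells, 1 of 9 tested was called. That gene, the proliferation marker Mki67, had 1.78, 1.38 and 2.099 CPM in cKO and 0.405, 0.695 and 0.418 CPM in control, and dividing cells of any type express it.

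Set against Pcp2 within the same library, every granule cell gene was higher in cKO. Pcp2 itself had 317, 421 and 459 CPM in cKO, against 1098, 1044 and 1013 CPM in control, and fell by 1.40 on the log2 scale (SE 0.13, edgeR adjusted p = 3.48e-04). Cbln3 had 3.36, 4.88 and 3.76 reads per read of Pcp2 in cKO and 1.21, 1.63 and 2.098 in control. On junction reads in place of gene counts, Cbln3 had 0.060, 0.097 and 0.077 reads per read of Pcp2 in cKO. In control it had 0.029, 0.043 and 0.049, so the size of the ratio depends strongly on which reads are counted. By gene counts the next gene was as follows. Fat2 had 0.973, 1.34 and 1.10 reads per read of Pcp2 in cKO and 0.315, 0.431 and 0.472 in control. Over the 10 genes the log2 ratio was higher in cKO by between 1.14 in Etv1 and 1.50 in Fat2, and in each gene all 3 cKO libraries lay above all 3 control libraries. On junction reads the differences were smaller, between 0.87 in Etv1 and 1.25 in Fat2. On gene counts each gene gave p = 0.1 in an exact two-sided permutation test, the smallest that 3 libraries against 3 allow. It stayed 0.1 after Benjamini-Hochberg adjustment over the 10 genes. The differences share one denominator, and the fall of Pcp2 stands in all of them. The 10 tests are thus not independent, and they give no evidence on the granule cell genes themselves. No share of all genes that separate on this ratio is given, so the count cannot be read as particular to granule cell genes.

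With the sum of the 19 Purkinje cell genes as denominator, the log2 ratios were higher in cKO by between 0.49 in Etv1 and 0.84 in Fat2. The exact two-sided permutation p values then ran between 0.1 and 0.4, and the adjusted values between 0.25 and 0.4. Gabra6, Etv1, Fat2 and Zic1 had groups that did not overlap on this ratio, and the other 6 did not separate. This count too has no share over all genes beside it, and the fall of the denominator stands in it. In the Purkinje cell list itself 8 of 19 genes fell and 0 rose, with a median of -0.45. Those that fell included Pcp2, Car8 (carbonic anhydrase-related protein) and Rgs8 (a regulator of G protein signalling), and Car8 and Rgs8 each fell by 1.00 on the log2 scale.

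The larger differences among the granule cell genes lay between libraries of the same genotype. In 9 of the 10 genes, all but Etv1, replicate 1 had the lowest value of cKO and also the lowest value of control, which 18.5% of all tested genes did. In cKO replicate 2 was the highest library in all 10 genes, and in control replicate 3 was the highest in 9. Summed over the 10 genes, replicate 1 had 64.8% of the mean of the other 2 libraries in cKO and 75.5% in control. The median over all tested genes was 99.0% in cKO and 98.9% in control. The cKO and control libraries numbered 1 are different animals, and correlations of the deviations of same-numbered libraries over all genes were 0.045, -0.062 and 0.021.

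**Figure D3:**
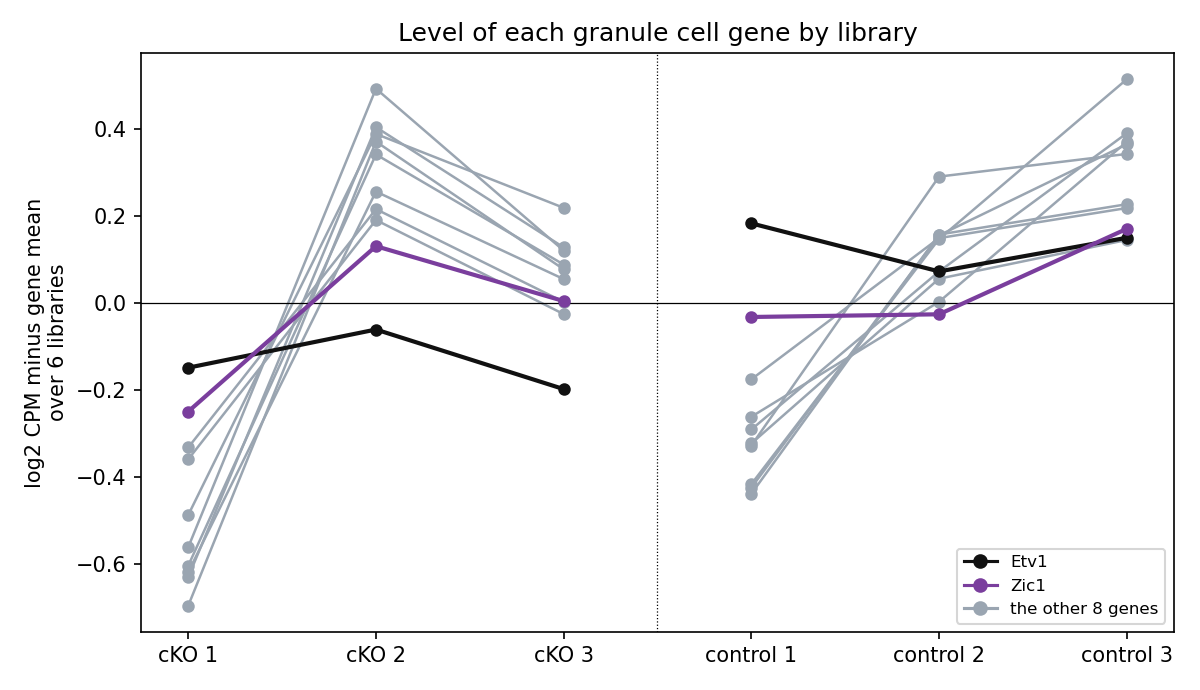
Log2 CPM of each granule cell gene minus its mean over the 6 libraries, with the 3 cKO libraries on the left and the 3 control libraries on the right; lines join the values of 1 gene within a group and carry no order. In the 8 genes in grey and in Zic1 replicate 1 is the lowest library of both groups, while Etv1 in black varies least within a group and is lower in cKO.

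The size of this step differed from gene to gene. Grin2c, Slc17a7, Cbln1, Cbln3, Fat2 and Calb2 had replicate 1 at between 52.5% and 58.3% of the other 2 in cKO, and at between 59.0% and 74.5% in control. Gabra6 and Neurod1 stood at 73.4% each in cKO, and at 77.9% and 72.7% in control. Zic1 stood at 80.2% in cKO and 92.8% in control, and Etv1 at 98.6% in cKO and 105% in control. Zic1 and Etv1 thus varied least by this measure. The coefficient of variation of Etv1 was 4.85% in cKO and 3.91% in control, below the median over all tested genes of 12.3% in cKO and 13.5% in control. In the other 9 genes it ran between 13.1% and 34.7% in cKO and between 8.18% and 31.1% in control.

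Some other lists had replicate 1 lowest in both groups as the granule cell genes did, and others did not. Replicate 1 was lowest in both groups in 18 of the 21 other granule cell genes, in 10 of 12 oligodendrocyte genes and in 6 of 8 endothelial genes, but in 0 of 19 Purkinje cell genes. For astrocytes and Bergmann glia the count was 6 of 12, for interneurons and Golgi cells 3 of 7, and for immature granule cells 4 of 9. For microglia it was 1 of 13, and for unipolar brush cells 0 of 3. The summed Purkinje list had replicate 1 at 90.1% of the other 2 in cKO, where replicate 1 was lowest, and at 133% in control. The summed oligodendrocyte list stood at 72.8% in cKO and 70.3% in control. What the libraries numbered 1 share was not tested, and no batch is named in the labels.

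**Figure D4:**
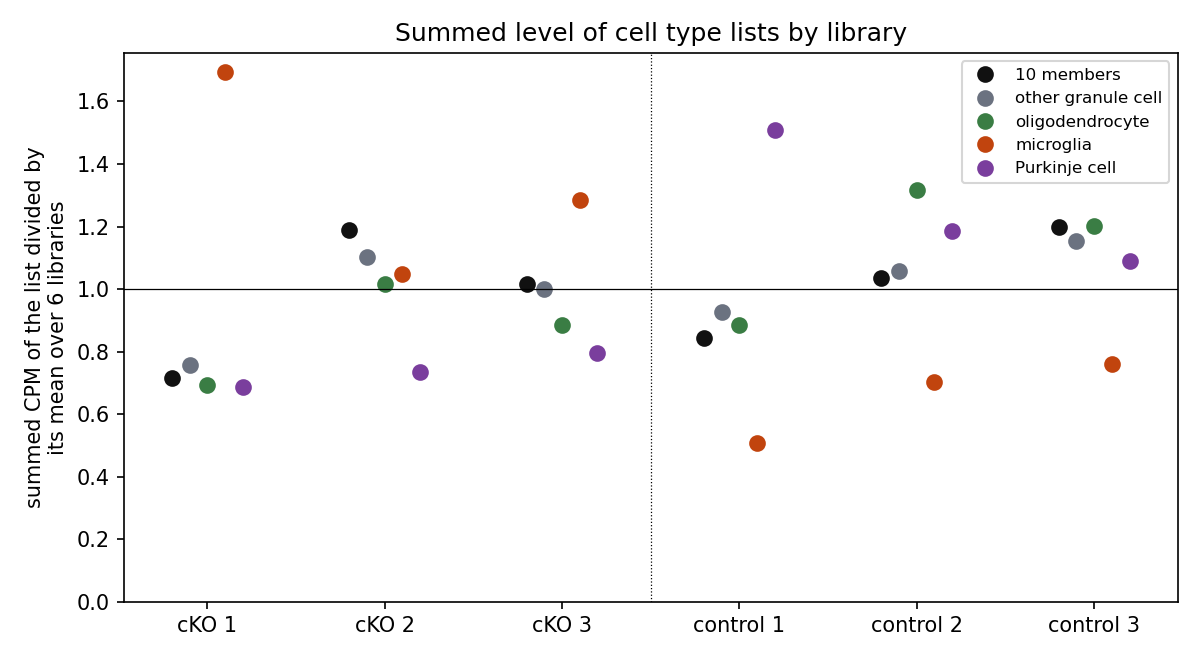
Summed CPM of 5 marker lists in each library, divided by the mean of that list over the 6 libraries, with cKO on the left. The granule cell lists and the oligodendrocyte list are low in replicate 1 of both groups, the microglia list is higher in all 3 cKO libraries than in any control library, and the Purkinje cell list is lower in all 3.

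The markers of other cells differed in how they compared between genotypes. Microglia genes summed to 141, 87.1 and 107 CPM in cKO, against 42.1, 58.5 and 63.2 CPM in control, and 7 of 13 rose with a median log2 fold change of 1.34. The 4 with the smallest p were C1qc, Tyrobp, Cd68 and Fcer1g, and their log2 fold changes were 1.36, 2.97, 1.89 and 1.34. Oligodendrocyte genes summed to between 2394 and 3515 CPM in cKO and between 3057 and 4550 CPM in control, with 1 of 12, the transferrin gene Trf, lower and a median of -0.31. Of 12 genes of astrocytes and Bergmann glia 1, Gfap, rose (log2 fold change 1.46), and 2, Slc4a4 and Hopx, fell (-0.36 and -0.32). The part of these cells in the values of the 10 genes was not tested.

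Lists of rarer or sparser cells gave 0 calls by edgeR, DESeq2 and limma-voom. Among 7 genes of inhibitory interneurons and Golgi cells 1 had an unadjusted p under 0.05 in edgeR, and the most abundant were Kit at 189 ± 42.9 CPM in cKO and 183 ± 26.2 CPM in control and Tfap2b at 56.6 ± 3.68 CPM in cKO and 62.7 ± 15.02 CPM in control (SD, n = 3 each). Among 3 genes of unipolar brush cells, which also express Calb2, 0 reached an unadjusted p under 0.05. Their summed level was 47.0, 28.4 and 36.5 CPM in cKO and 45.3, 43.8 and 29.6 CPM in control, so replicate 1 was not low there. Endothelial genes were close to 0, with a sum of 8.61 to 16.6 CPM in cKO and 8.70 to 18.2 CPM in control over 8 genes (0 at an unadjusted p under 0.05), of which Slco1a4 and Cdh5 were the most abundant.

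Splicing of the 10 genes was read from the junctions, each an intron that spliced reads skip over, by comparing them with the introns of the GENCODE annotation on mm10. The 10 genes held 338 junctions and 1117173 junction reads over the 6 libraries. Of the junctions, 99 were annotated introns, and these took 1077957 of the reads. The rest were made up of 96 with a new acceptor (the 3′ end of the intron), 76 with a new donor (its 5′ end), 30 that paired an annotated donor with an annotated acceptor in a new way, and 37 with both ends new. New pairings, the kind that skipping of an annotated exon gives, took 1022 reads.

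No junction of a granule cell gene was called between the genotypes. Of the 338, 156 lay in clusters of junctions with a shared donor or acceptor and had enough reads to be tested with edgeR's diffSpliceDGE. Called junctions, those with an adjusted p under 0.05 and a change of at least 5 percentage points in their share of the cluster, numbered 0 of 156, beside 842 of 112047 over the whole table (0.751%, of which 0.659% higher in cKO). At an unadjusted p under 0.05 and the same minimum change the count was 1, beside 3.16% of all junctions tested. That junction, a new acceptor of Grin2c at chr11:115253305-115253697 named after its values were seen, had 15, 13 and 0 reads in cKO and 0, 1 and 0 in control. In the 21 other granule cell genes 0 of 229 were called, and 2 met the minimum change at an unadjusted p under 0.05. In the 19 Purkinje cell genes 9 of 717 were called, 5 higher and 4 lower in cKO. A share of 0 in 156 is near the background share.

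The share of reads on unannotated junctions did not separate the genotypes over the 10 genes. It was 3.66%, 3.07% and 3.61% in cKO, against 2.89%, 3.53% and 4.18% in control. The Purkinje cell list overlapped on this share as well, with 1.57%, 1.55% and 1.64% in cKO and 1.18%, 1.27% and 1.99% in control. Over all junctions it was 2.13%, 2.03% and 2.04% in cKO and 1.52%, 1.98% and 1.69% in control, without overlap. Much of the unannotated share of the 10 genes came from Fat2 and Cbln3. Of 20883 reads on new acceptors Fat2 had 8233 and Cbln3 7324, and of 10502 on new donors Fat2 had 5328. The 2 junctions of an unannotated Fat2 exon, described below, held 7560 and 5274 reads over both genotypes. In the 10 genes new pairings took 0.072%, 0.090% and 0.118% of the reads in cKO and 0.087%, 0.095% and 0.080% in control, with overlap. By gene, new pairings separated the groups in 1 of the 10, Slc17a7, with 0.151%, 0.136% and 0.151% in cKO, against 0.032%, 0.053% and 0.114% in control. These are 21, 33 and 34 reads in cKO and 4, 11 and 26 reads in control. Among the 10942 genes with at least 100 junction reads in every library, 9.98% had the cKO libraries wholly above on this share and 1.73% wholly below, so 1 in 10 is near the background. In the Purkinje cell list new pairings took 0.387%, 0.374% and 0.393% in cKO, against 0.180%, 0.160% and 0.170% in control, with every cKO library above every control library. In the list of 21 other granule cell genes they took 0.176%, 0.309% and 0.204% in cKO and 0.212%, 0.109% and 0.147% in control, with overlap. The difference between the lists was not tested.

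**Figure D5:**
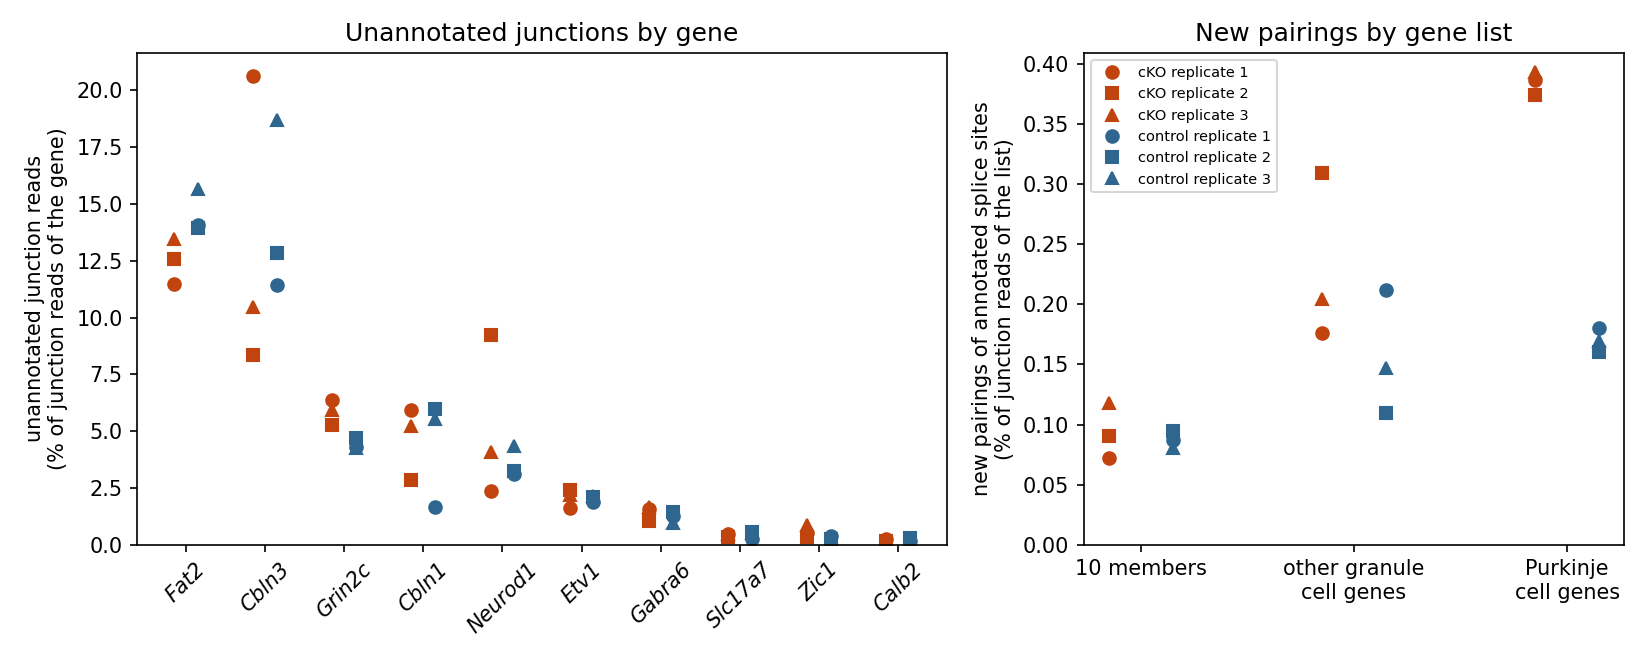
Left, reads on unannotated junctions as a percentage of the junction reads of each granule cell gene; right, reads on new pairings of annotated splice sites as a percentage of the junction reads of 3 gene lists; points are libraries, cKO in red to the left of control in blue. The 10 genes overlap between the groups in new pairings (0.072% to 0.118% in cKO, 0.080% to 0.095% in control), and the Purkinje cell genes do not.

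Gene by gene, the groups separated in Grin2c and Fat2, in opposite directions. Reads on the unannotated junctions of Grin2c made up 6.38%, 5.26% and 5.95% in cKO, against 4.29%, 4.70% and 4.27% in control, with every cKO library above every control library. Among the same 10942 genes, counted over junctions that share an end with an annotated intron of 1 gene, 23.0% had the cKO libraries wholly above and 2.24% wholly below. Counted that way, 1 of the 10 genes, Grin2c, was above and 0 were below, beside 6 above and 2 below of 19 Purkinje cell genes. A count of 1 in 10 is under the background share. In Fat2 the cKO values of 11.5%, 12.6% and 13.5% lay below the control values of 14.1%, 13.9% and 15.6% when junctions inside the gene with both ends new were counted too, and the groups overlapped without them. Most unannotated Fat2 reads lay on 2 junctions of an exon that the annotation lacks. The inclusion of that exon overlapped between the groups, with means of 97.9% in cKO and 97.6% in control, so the Fat2 share does not measure a change in its splicing.

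The joins of exon to exon that carried these reads are shown as the last 15 exonic bases before the intron in lower case and the first 15 after it in capitals, read from GENCODE transcripts on the strand of the gene. In Slc17a7 a minor join enters the exon at the fifth base of the annotated one:

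Slc17a7 annotated join: tcttctatgtctatgGCAGCTTCGGGATCT

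Slc17a7 minor join: tcttctatgtctatgCTTCGGGATCTTTTG

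The annotated join had 953, 1899 and 1637 reads in cKO and 899, 1488 and 1582 in control, and its intron is chr7:45170747-45170846 on mm10, plus strand. The minor join, whose intron ends 4 bases later, had 40, 38 and 0 reads in cKO and 18, 34 and 30 in control. It was the unannotated junction of Slc17a7 with the most reads, and the genotypes overlapped.

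A second minor join of Slc17a7 had the smallest unadjusted p of all 156 tested junctions, and is shown for that p:

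Slc17a7 annotated join: attcgcagccaacagGGTCTTTGGCTTTGC

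Slc17a7 minor join: attcgcagccaacagCAGCCCGCGTTCACT

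This choice was made with its values known. The annotated join had 778, 1460 and 1382 reads in cKO and 741, 1418 and 1199 in control. The minor one, chr7:45169936-45170265, had 3, 0 and 0 reads in cKO, against 0, 62 and 59 in control. It was lower in cKO with an adjusted p of 0.061 in edgeR's diffSpliceDGE and a mean share of its cluster of 0.075% in cKO and 1.80% in control, under the minimum change of 5 points. Control replicate 1 had none of these reads, so its control libraries also differed among themselves.

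In Grin2c the unannotated reads lay mainly on 2 new pairings of annotated splice sites. Both leave from the donor of exon 2 of the 15 exons of transcript Grin2c-202, pass over its exon 3, and enter either the acceptor of exon 4 of that transcript or that of exon 2 of Grin2c-201:

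Grin2c pairing with exon 4 of Grin2c-202: taccgacccattaggGAAGGTTCTCTGTAC

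Grin2c pairing with exon 2 of Grin2c-201: taccgacccattaggGACCCTCCAGTGGAC

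The first, chr11:115261245-115266419 on the minus strand, had 42, 30 and 51 reads in cKO and 14, 30 and 35 in control. The second, chr11:115261148-115266419, had 15, 52 and 54 reads in cKO and 18, 37 and 40 in control. The annotated intron from the same donor had 0, 0 and 0 reads in cKO and 0, 3 and 0 in control, so the pairings outside the annotation were the ones in use in both genotypes. Neither pairing passed the test. The mean share of its cluster for the first was 32.9% ± 14.0 in cKO and 25.5% ± 1.55 in control (SD, n = 3 each), the largest change of any tested Grin2c junction that met the read minimum, and smaller than the spread in cKO.

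In Cbln3 a single donor fed the annotated acceptor and acceptors within the last exon:

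Cbln3 annotated join: cgccaaactgtccagGTGAGTCTGATGCTG

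Cbln3 main unannotated join: cgccaaactgtccagCTTCCTGCTCAGCGC

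Cbln3 join of a single library: cgccaaactgtccagACTCCACTCCTCCTG

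The annotated join had 5009, 9286 and 8973 reads in cKO and 5166, 8298 and 9074 in control. The main unannotated one, chr14:55882662-55883466 on the minus strand, had 892, 188 and 1461 reads in cKO and 957, 1282 and 1663 in control. Its share of the cluster was 8.92%, 1.16% and 8.58% in cKO and 9.59%, 8.20% and 9.65% in control, so cKO replicate 2 alone stood low. The last join, chosen after its values were seen, had 728 reads in cKO replicate 1 and 0 in the other 5 libraries. Cbln3 also had the widest range of unannotated reads of the 10 genes, 8.37% to 20.6% in cKO and 11.4% to 18.7% in control.

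Such unevenness was common in the rare junctions of these genes. Of 56 unannotated junctions with 50 or more reads in all, 28 had no read in at least 1 library. A Cbln1 junction with both ends inside an exon had 203, 0 and 322 reads in cKO and 0, 299 and 303 in control. In this junction reads were present or missing by library in both genotypes. Of the 56 junctions, 11 had reads in 1 genotype alone, 5 in cKO and 6 in control, and 9 of these 11 had them in 1 library alone.

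Fat2 held an exon that the annotation lacks, and in both genotypes it was spliced in far more often than the annotated join skipped it. The annotated join of exon 1 to exon 2 of the 24 exons of Fat2-201 is shown to mark where it lies, between the lower-case and the capital bases:

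Fat2 annotated join: acttgaggggcacagGAGCTTTCACCATGA

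That join, chr11:55312258-55336460 on the minus strand, had only 2, 44 and 39 reads in cKO and 4, 24 and 57 in control. The junction from exon 1 into the unannotated exon had 792, 1400 and 1743 reads in cKO and 919, 1223 and 1483 in control. The junction from it to exon 2 had 618, 1148 and 1049 reads in cKO and 547, 879 and 1033 in control. Both had more reads than the annotated join in every library.

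The unannotated Fat2 exon spans 206 bases at chr11:55314516-55314721. Its inclusion, the mean of both joining junctions divided by that mean plus the skipping junction, was 99.7%, 96.7% and 97.3% in cKO and 99.5%, 97.8% and 95.7% in control. The means of 97.9% ± 1.6 in cKO and 97.6% ± 1.9 in control (SD, n = 3 each) differed by less than the spread within either group. It was singled out after its values were seen. Both joining junctions count as unannotated, and they were the 2 unannotated Fat2 junctions with the most reads. On average the junction from exon 1 took 47.6% of its cluster in cKO and 48.6% in control. The junction to exon 2 took 34.7% in cKO and 32.4% in control. The other reads of the cluster lay on the annotated join and on junctions left out of the inclusion.

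The share of reads outside the annotation differed among the remaining genes. In Cbln1 it ran from 2.86% to 5.95% in cKO and from 1.67% to 5.95% in control. Calb2 and Zic1 had less than 1% in every library, with 0.136% to 0.250% in cKO and 0.108% to 0.304% in control for Calb2. Gabra6 had 1.03% to 1.66% in cKO and 0.949% to 1.43% in control, and its leading unannotated junction, with an acceptor inside the last intron, had 112, 115 and 120 reads in cKO and 88, 132 and 128 in control. Etv1 had 1.63% to 2.40% in cKO and 1.87% to 2.16% in control, and its leading unannotated junction, from a new donor, had 151, 228 and 198 reads in cKO and 222, 144 and 326 in control. That junction enters the same exon as a pair of annotated joins, which are shown because they tell Etv1 transcripts apart: the first donor ends an internal exon, and the second ends the first exon of transcripts that start further downstream:

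Etv1 join from the first donor: catggcttgctgaagCTCAGGTACCTGACA

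Etv1 join from the second donor: aacacagaacattagCTCAGGTACCTGACA

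The first, chr12:38783286-38793170 on the plus strand, had 3832, 2783 and 3106 reads in cKO and 3288, 3303 and 3341 in control. The second, chr12:38783803-38793170, had 2699, 3259 and 3240 reads in cKO and 3037, 3476 and 3802 in control. The groups overlapped on both. Neurod1 has a single annotated intron and gave 0.779 junction reads per 100 gene counts, against 107 in Calb2 with its 11 annotated introns, so its splicing rests on 2683 junction reads and its unannotated share ran from 2.35% to 9.24% in cKO and from 3.11% to 4.34% in control.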

How the data were processed

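RNA-seq of the pull-down gave 6 libraries, 3 cKO and 3 control. The labels' protocols state 60 µg of each anti-GFP antibody per pull-down and NuGEN Ovation amplification of 10 ng of RNA. Amplified reads are not independent molecules, and the SDs and SEs given hold the spread between libraries. The submitters' processing notes name TopHat2 2.1.0, HTSeq 0.6.0 and mm10. The authors deposited a table of raw read counts (23420 genes, no normalization) and a junction list per library, which TopHat made per the file headers and which gives the number of spanning reads. Of the gene names 27 had become dates and 4 were repeated. Which annotation and strand setting the counting used is not stated in these sources. Depth was 140110897 to 160571518 gene counts per library, of which the ribosomal precursor Rn45s held 9.56% to 13.5%.

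Gene counts were filtered with filterByExpr, scaled by TMM and compared between genotypes by the quasi-likelihood test of edgeR 4.0.16 (R 4.3.3), with no covariate and Benjamini-Hochberg adjustment over 16067 genes at 0.05. SEs derive from the fold change and its F statistic. Junctions are written as introns, counted from 1, in mm10. Annotated introns and the bases at joins came from GENCODE M21. A junction was kept with 10 or more reads in total and reads in 2 or more libraries. Kept junctions that share a donor or an acceptor formed a cluster, and edgeR's diffSpliceDGE compared each one with the others of its cluster. Permutation tests were exact (scipy 1.17.1). The procedures of edgeR were also tested on simulated data. Alternatives were RLE and upper quartile scaling, other filters, DESeq2 1.42.0, limma-voom (limma 3.58.1), a block by replicate number, junction reads per gene, Rn45s left out, each library left out and other junction minima. Leaving out both libraries numbered 1, and the longest coding transcript as length, were added after seeing the data.

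The 10 genes and all marker lists were chosen with earlier results of these data known. Genes named beside the 10 are Rbm17, Pcp2 and, per list, up to 4 called genes of smallest p, or the 2 of highest level where none was called. Junctions named are, per gene, the unannotated one with the most reads or the tested one with the largest change in share, with annotated partners. Some genes and junctions that these rules take are not reported here. Others were picked with their values known.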

Additional observations from a re-analysis of the deposited data

How the results depend on the processing

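The 10 granule cell genes gave 0 calls in every alternative except DESeq2, which called 1, Etv1. The 21 other granule cell genes gave 2 calls, Chn2 and Tiam1, with DESeq2, with the replicate number as a block, and without both libraries numbered 1. Their count was 0 with each library left out. Over the whole table the main count of 1265 became 2042 with DESeq2 and 842 with junction reads per gene, and ran from 530 to 1037 with each library left out, and was 1336 without both libraries numbered 1. The fold changes of all 10 genes except Etv1 turned sign in at least 1 alternative. With each library left out, the log2 fold change ran from -0.19 to 0.31 in Cbln1, from -0.30 to 0.14 in Cbln3, from -0.26 to 0.012 in Gabra6, from -0.22 to 0.083 in Neurod1, from -0.38 to 0.026 in Calb2, from -0.39 to 0.10 in Grin2c, from -0.066 to 0.33 in Fat2, from -0.16 to 0.028 in Zic1 and from -0.27 to 0.20 in Slc17a7. Neurod1 was at 0.078 with junction reads per gene, and Slc17a7 at 0.0084 without both libraries numbered 1. The cause was not tested. On the longest coding transcript, Etv1 stood at 87.5 RPKM and Slc17a7 at 119 RPKM in control. The count of called junctions ran from 516 to 697 with each library left out, and was 376 without both libraries numbered 1, 436 with a minimum change of 10 points and 2539 with none, while the 156 tested junctions of the granule cell genes gave 0 calls in each of these. The numbers on the libraries do not pair animals in the labels, and the deviations of same-numbered libraries correlated at 0.045, -0.062 and 0.021. With the replicate block, 0 of the 10 genes and 0 of the 156 junctions were called, and Etv1 had an edgeR adjusted p of 0.083. Neurod1 had the fewest junction reads of the 10 genes and Grin2c the fewest counts.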
